A study of Mus musculus with 75 samples.

Results

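Rad21 peaks called in mid G1 of erythroid G1E-ER4 cells were divided into those already called in early G1 and those not. A mid G1 peak that shared at least 1 bp with an early G1 peak was kept, and a mid G1 peak that shared none was gained. The early G1 list held 8694 peaks and the mid G1 list 15762, which is 1.81 times as many. Of the 15762 mid G1 peaks, 7347 were gained, or 46.6% (exact 95% binomial interval 45.8% to 47.4%), and 8415 were kept. The 12 Rad21 and CTCF lists of the study hold 246850 peaks in all.

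G1E is a mouse proerythroblast line of strain 129 that lacks GATA1, and G1E-ER4, derived from it, was used without induction. Nocodazole at 200 ng/ml, given over 7 to 8.5 h, arrested the cells of both stages in pro-metaphase before it was removed. Early G1 cells were collected 60 min after release and mid G1 cells 120 min after release, purified by flow sorting. Rad21 was immunoprecipitated in 2 samples per stage, 4 of the 75 samples in the study, and CTCF likewise in 2 samples per stage. Further lists come from the same line in pro-metaphase (0 min), ana/telophase (25 min), late G1 (240 min) and asynchronous culture. Since a list merges the samples of a stage, no comparison could be tested against replicates. Intervals after shares are exact binomial and those after medians come from order statistics, both at 95%, and they cover counting error only. Read depth is unknown, so a site without a call may have been bound below the threshold of that list. A cell line arrested with a drug also differs from cells that pass mitosis undisturbed.

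Cohesin is a ring-shaped complex that holds DNA strands together and extrudes chromatin into loops, and Rad21 is the subunit that closes the ring. CTCF is a zinc-finger protein that binds a long DNA motif and can halt moving cohesin. Sites where both are found mark many loop anchors and domain boundaries in interphase, and most cohesin leaves the chromosome arms when cells enter mitosis.

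The early G1 list was carried forward almost whole. Of the 8694 early G1 peaks, 267 had no mid G1 peak, or 3.07%. Early G1 peaks in the lowest decile by fold enrichment were found in mid G1 in 87.0% of cases, and all of those in the 3 highest deciles were. The overlap rule left few doubtful cases. The closest gained peak lay 31 bp from an early G1 peak, 21 gained peaks (0.286%) lay within 200 bp of one, and the smallest stretch shared by a kept and an early G1 peak was 57 bp.

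Gained peaks were the weaker and narrower peaks of the mid G1 list. Fold enrichment is the authors' value at the summit over background. It is given here as a description, because whether a weak peak passes the early G1 threshold is part of how the sets were made. The median fold enrichment in mid G1 was 6.17 for gained peaks (quartiles 5.10 and 7.78) and 12.1 for kept peaks (8.77 and 16.9). The median width was 215 bp against 303 bp. In the lowest decile of the mid G1 list 86.2% of peaks were gained, and in the highest decile 14 of 1577 were, or 0.888%. Among the 8694 strongest mid G1 peaks, as many as early G1 had in all, 1834 were gained, or 21.1%.

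Most gained sites were called again later and few had been called before. Rad21 was called in late G1 at 86.2% of gained sites (85.4% to 87.0%) and at 99.7% of kept sites. Asynchronous cells had a Rad21 peak at 55.9% of gained and 95.6% of kept sites. In ana/telophase, 25 min after release, 1009 gained sites had a Rad21 peak, or 13.7%, against 67.9% of kept sites, so for those 1009 the call was present, absent and present again. In pro-metaphase it was 9 gained sites (0.122%) against 461 kept sites (5.48%). Outside early and mid G1, no Rad21 list held 844 of the gained peaks (11.5%) and 17 of the kept peaks (0.202%). The 968 gained sites called both in ana/telophase and in late G1 had a median mid G1 fold enrichment of 7.52, and the 971 called in neither stage had one of 4.83.

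CTCF was already in place at most gained sites. An early G1 CTCF peak overlapped 6248 of the 7347 gained Rad21 peaks, or 85.0% (84.2% to 85.8%), and 99.3% of the kept peaks. Read from the CTCF side, 18.5% of the 33815 early G1 CTCF peaks had a gained Rad21 peak and 43.1% had any Rad21 peak in mid G1. CTCF had been called in ana/telophase at 72.8% of gained and 94.8% of kept sites, and in pro-metaphase at 30.0% and 56.8%. CTCF was new in mid G1 at 531 gained sites, 7.23% of them, and at 45 kept sites, 0.535%.

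**Figure D1:**
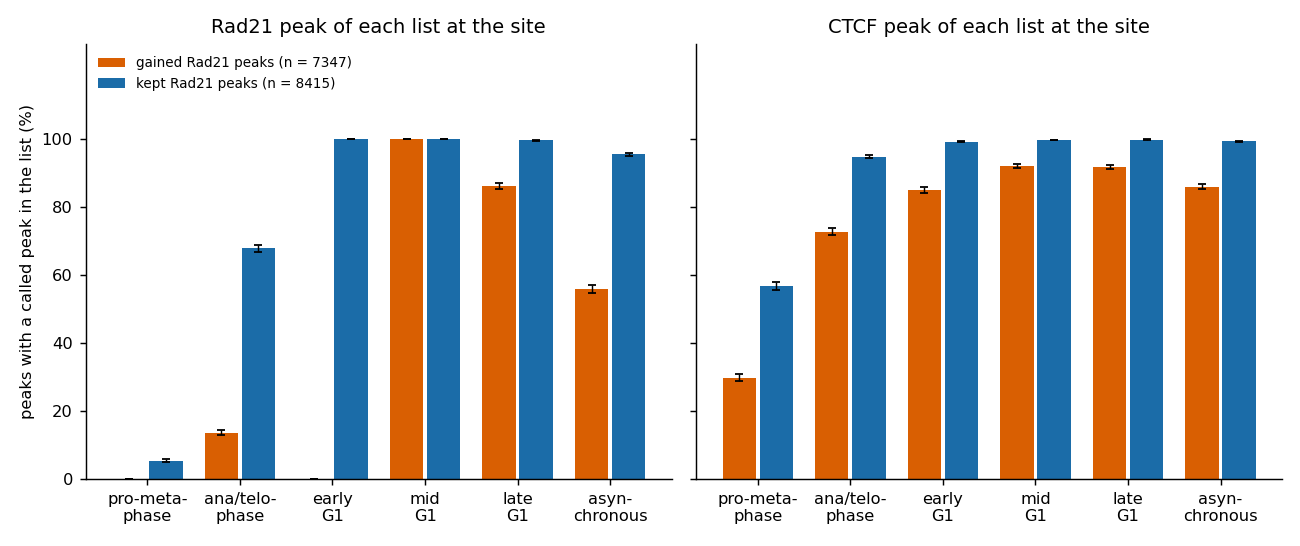
Share of gained (orange, n = 7347) and kept (blue, n = 8415) mid G1 Rad21 peaks that overlap a Rad21 peak (left) or a CTCF peak (right) of each list, in percent. Bars of early and mid G1 Rad21 are fixed by the definition. Whiskers are exact 95% binomial intervals. In ana/telophase CTCF was called at 72.8% of gained sites and Rad21 at 13.7%.

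The new CTCF sites were weak in the CTCF list. Ranked by fold enrichment from 0 (lowest) to 100 (highest), the CTCF peaks under the 531 gained peaks had a median mid G1 percentile of 15.8. Of the 3816 mid G1 CTCF peaks that were not in the early G1 list, 530 carried a gained Rad21 peak, or 13.9%. Those 530 were called again in late G1 in 80.2% of cases (76.5% to 83.5%), and the new CTCF peaks without Rad21 in 41.5% (39.7% to 43.2%).

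Gained sites ranked lower in early G1 CTCF than kept sites and higher than CTCF sites without Rad21. The median percentile in the early G1 CTCF list was 58.4 at gained peaks (57.6 to 59.3, n = 6248) and 77.7 at kept peaks (77.1 to 78.3, n = 8357). CTCF peaks without Rad21 in both stages had a median percentile of 33.5 (33.1 to 34.1, n = 19028). The gained peaks spread widely, with quartiles at 37.2 and 77.1. The CTCF list was also cut by rank into 4 quartile groups and 10 deciles. Of the gained peaks with CTCF, 14.4% lay in the lowest quartile group of the CTCF list and 27.6% in the highest, against 2.94% and 54.8% of the kept peaks.

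The difference in CTCF rank was also present within quartile groups of mid G1 Rad21 fold enrichment. These groups do not match strength in full, since gained peaks were only 14 of the 1577 in the highest decile. In the lowest quartile group of mid G1 Rad21 fold enrichment the median early G1 CTCF percentile was 55.1 for gained peaks (53.8 to 57.1) and 72.6 for kept peaks (68.2 to 75.1). In the highest Rad21 quartile group, which held 171 gained peaks with CTCF, it was 63.7 (61.5 to 67.8) and 81.0 (80.3 to 81.8). The intervals did not overlap in any of the 4 quartile groups.

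Among CTCF peaks still without Rad21 in early G1, a gained peak was more frequent the higher the CTCF rank. It was 9.39% in the lowest decile of the CTCF list (8.40% to 10.5%) and 49.1% in the highest (46.4% to 51.9%). Over all CTCF peaks the gained share was highest in the seventh and eighth deciles, at 24.4% and 24.3%. It was 18.7% in the highest decile, where 61.4% of the CTCF peaks carried a kept Rad21 peak.

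**Figure D2:**
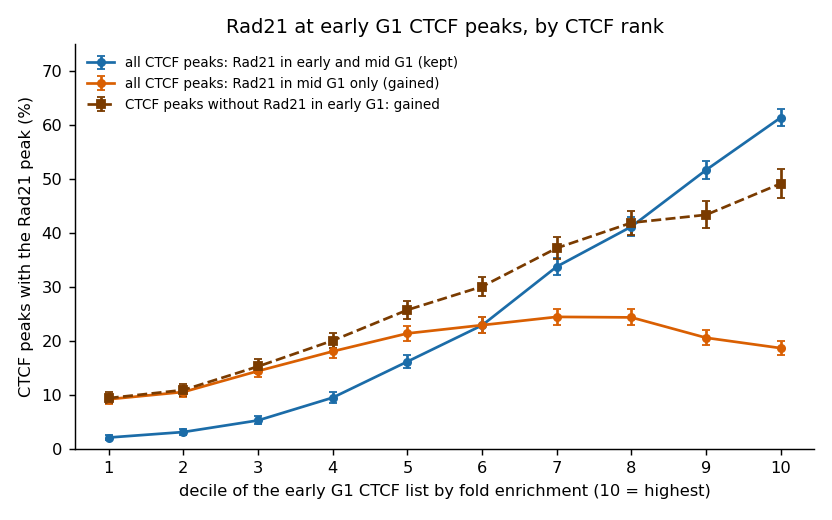
Share of early G1 CTCF peaks, in percent, that carried a kept (blue) or a gained (orange) Rad21 peak, by decile of CTCF fold enrichment. The dashed line takes only CTCF peaks without Rad21 in early G1. Whiskers are exact 95% binomial intervals. The kept share runs from 2.09% to 61.4% and the dashed line from 9.39% to 49.1%.

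CTCF percentile in mid G1 minus that in early G1 was set beside all CTCF peaks of the same early G1 quartile group. The lists hold 33815 and 36009 peaks, so the values are read between sets and not as a change. In the second quartile group the median difference was 11.1 points at gained sites (10.3 to 12.0) and 13.0 at kept sites (11.9 to 14.2). It was 0.20 at CTCF peaks without Rad21 (-0.26 to 0.66) and 3.66 over all CTCF peaks. Gained and kept sites had overlapping intervals in the first 3 quartile groups, and both lay above the sites without Rad21. In the highest quartile group the medians were -0.11 for gained, -1.21 for kept and -2.99 for CTCF without Rad21.

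A minority of gained peaks had no CTCF. There were 568 gained peaks without CTCF in early and mid G1, or 7.73%, and 13 kept peaks, or 0.154%. These 568 were weak, with a median fold enrichment of 4.83 and a width of 190 bp. Late G1 held 51.1% of them (46.9% to 55.2%), against 89.2% of the gained peaks with CTCF, and asynchronous cells held 17.8% against 59.1%. Their median distance to a kept peak was 107 kb (91.3 to 126), and 22.4% lay within 20 kb of a mid G1 domain boundary.

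Rad21 was called in ana/telophase at 13.7% of all gained peaks. In the highest quartile group of mid G1 Rad21 fold enrichment it was 40.6% of gained peaks (71 of 175). Kept peaks of that group had such a call in 85.8% of cases (3242 of 3777). Of the 5 strongest gained peaks on CTCF, 4 had a Rad21 call in ana/telophase, with fold enrichments from 5.26 to 8.09, and none in early G1. On chr15:42794306-42794596 (mm9), the highest of them, Rad21 fold enrichment was 22.0 in mid G1, 19.2 in late G1, 22.8 in asynchronous cells and 7.51 in ana/telophase, with no early G1 call. CTCF fold enrichment at this site stood at 41.0 in ana/telophase, against 7.89 before it in pro-metaphase and 27.1 and 30.5 after it in early and mid G1, so CTCF was called where Rad21 was not. The next was on chrX:13287364-13287647, with a Rad21 fold enrichment of 20.1 in mid G1 and 5.26 in ana/telophase. On chr10:85926586-85926910 Rad21 fold enrichment was 20.0 in mid G1 and 7.80 in ana/telophase, and the peak lay in an anchor of a loop new in mid G1, 399 kb from the nearest kept peak. The strongest gained peak without CTCF, chr3:21975528-21975838, had a Rad21 fold enrichment of 14.5 in mid G1, 9.32 in late G1 and 7.07 in asynchronous cells.

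Very strong CTCF did not always carry Rad21 in early G1, and 62.1% of CTCF peaks in the highest decile did. The gained peak on the highest-ranked CTCF site, chr2:32768014-32768250, had a CTCF fold enrichment of 46.2 in pro-metaphase and 81.0 in early G1, a percentile of 99.99. Rad21 fold enrichment there was 9.13 in mid G1 and 5.62 in ana/telophase. On chr5:130230838-130231002 CTCF fold enrichment was 76.2 in early G1, and Rad21 was called at 5.64 in mid G1 and 4.26 in ana/telophase. The strongest kept peak was the widest of all mid G1 peaks. On chr8:108204558-108206478 it was 1921 bp wide with a Rad21 fold enrichment of 63.7 in mid G1 and 5.46 in early G1, and it overlapped no CTCF peak in either stage. The second, chr15:72853314-72853805, had 46.1 in mid G1 and 29.4 in early G1, over a CTCF peak of 40.5.

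Gained peaks lay somewhat farther from kept peaks than kept peaks lay from each other. The median distance from a gained peak to the nearest kept peak was 63.1 kb (60.4 to 66.0). From a kept peak to the nearest other kept peak it was 44.2 kb (42.4 to 45.6), and from a mid G1 CTCF peak without Rad21 to a kept peak 53.3 kb (51.9 to 54.7). Within 20 kb of a kept peak lay 24.5% of gained peaks, 31.1% of kept peaks and 27.3% of CTCF peaks without Rad21. So gained peaks were not gathered beside kept ones more than unoccupied CTCF sites were. The same order of gained and kept held in each quartile group of CTCF rank, with overlapping intervals in the 2 lower quartile groups. In the highest quartile group the medians were 47.5 kb for gained and 39.6 kb for kept. For CTCF peaks without Rad21, taken here from the early G1 list, the median was 38.3 kb.

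**Figure D3:**
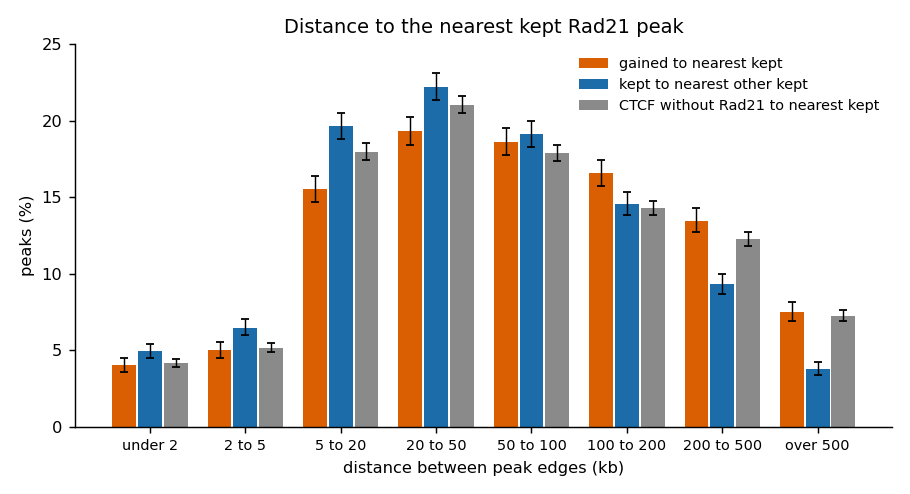
Share of peaks, in percent, by distance between peak edges in kb, for gained peaks to the nearest kept peak (orange), kept peaks to the nearest other kept peak (blue) and mid G1 CTCF peaks without Rad21 to the nearest kept peak (grey). Whiskers are exact 95% binomial intervals. Over 500 kb lay 7.51% of gained, 3.78% of kept and 7.26% of CTCF peaks without Rad21.

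The spaces between kept peaks were also counted by the gained peaks within them, and a longer space has more room for any peak. Of the 8395 intervals between neighbouring kept peaks, 56.2% had no gained peak and a median length of 49.2 kb. The 22.6% with 1 gained peak had a median length of 139 kb, and the 10.6% with 2 had one of 249 kb. The most gained peaks in 1 interval was 16, over 5311 kb. The median distance between nearest Rad21 peaks was 42.9 kb in the early G1 list and 25.4 kb in the mid G1 list. The gained peak farthest from a kept one, chrX:119939790-119939954, was 8024 kb away and had a Rad21 fold enrichment of 5.37 in mid G1, with no Rad21 call in any other list.

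Domain boundaries did not separate gained from kept peaks clearly. Domains are regions of raised internal contact in the Hi-C maps, and their distinct starts and ends were taken as boundaries. Within 20 kb of a mid G1 boundary lay 33.5% of gained peaks (32.4% to 34.6%) and 36.1% of kept peaks (35.1% to 37.1%). The share over all mid G1 CTCF peaks was 30.7%, and over those without Rad21 it was 27.2%. Within quartile groups of CTCF rank the gained and kept shares had overlapping intervals throughout, at 33.3% and 32.9% in the lowest and 37.3% and 36.5% in the highest. Within quartile groups of Rad21 fold enrichment the order turned. In the third quartile group 40.5% of gained (37.7% to 43.3%) and 35.0% of kept peaks (33.2% to 36.8%) lay at a boundary. The intervals overlapped in the other groups, at 29.4% and 29.1% in the lowest, 35.0% and 31.8% in the second and 44.0% and 39.5% in the highest. The mean difference over the 4 groups was 3.37 percentage points, with gained peaks higher.

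New boundaries held little Rad21 of either kind. Of the 12752 mid G1 boundaries, 3495 had no early G1 boundary within 20 kb, or 27.4%. In turn, 2661 of the 11635 early G1 boundaries had no mid G1 boundary within 20 kb. New and lost refer to calls in the lists. Such new boundaries lay near 6.59% of gained (6.03% to 7.18%), 5.24% of kept (4.77% to 5.74%) and 5.35% of CTCF peaks without Rad21. Seen from the boundary, 10.6% of new ones had a gained and no kept peak within 20 kb, 8.67% a kept and no gained peak, and 78.4% had no Rad21 peak. Of boundaries present in both stages, 17.3% had a gained and no kept peak. Any gained peak was found at 25.8% of those boundaries (24.9% to 26.7%) and at 13.0% of new ones (11.9% to 14.1%). Any kept peak was found at 2851 of 9257 and at 386 of 3495, so both kinds were more frequent at boundaries called in both stages. CTCF without any Rad21 peak was found at 20.8% and 15.9%, in the same order. Early G1 boundaries without a mid G1 boundary within 20 kb resembled new ones, with any gained peak at 10.2% and any kept peak at 10.4%.

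Loop anchors separated the sets more than boundaries did. A loop is a pair of anchors with more contact between them than the local expectation. An anchor of any of the 9714 mid G1 loops held 50.0% of gained peaks (48.9% to 51.2%), 75.8% of kept peaks (74.8% to 76.7%) and 36.8% of CTCF peaks without Rad21. Over all mid G1 CTCF peaks the share was 48.7%. Within quartile groups of early G1 CTCF rank, the CTCF peaks without Rad21 were those of the early G1 list. The gained share lay between those of kept peaks and of these CTCF peaks in each group. It was 46.5% against 60.2% and 33.1% in the lowest, and 56.7% against 78.5% and 47.1% in the highest.

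Loops were called new if no early G1 loop had both anchors within 20 kb, and 2957 of the 9714 mid G1 loops were, or 30.4%. Of the 7029 early G1 loops, 718 were lost in mid G1, or 10.2%. An anchor of a new loop held 21.3% of gained (20.4% to 22.3%) and 30.0% of kept peaks (29.0% to 31.0%), against 18.6% of all mid G1 CTCF peaks. Anchors of loops held from early G1 took in 36.4% of gained and 62.9% of kept peaks. Among peaks at an anchor, those at new loops alone were 27.3% of gained (25.9% to 28.8%) and 16.9% of kept peaks (16.0% to 17.9%), against 21.8% of CTCF peaks without Rad21. Within quartile groups of mid G1 Rad21 fold enrichment the new-loop shares came closer, with a mean difference of -1.99 percentage points (gained minus kept) over the 4 quartile groups. In the highest Rad21 quartile group 33.7% of gained (26.8% to 41.2%) and 34.5% of kept peaks (33.0% to 36.1%) lay at a new loop, while 32.0% of gained (25.2% to 39.5%) and 70.0% of kept peaks (68.5% to 71.5%) lay at a held one.

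**Figure D4:**
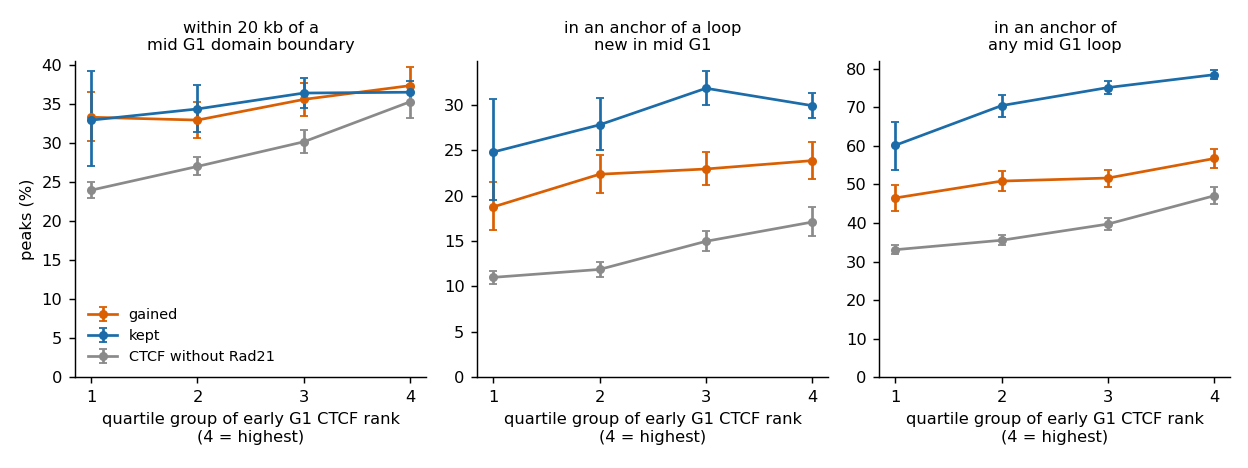
Share of gained (orange), kept (blue) and early G1 CTCF peaks without Rad21 (grey), in percent, by quartile group of early G1 CTCF rank. Panels show peaks near a mid G1 boundary, in an anchor of a new loop and in an anchor of any mid G1 loop. Whiskers are exact 95% binomial intervals. Gained and kept overlap at boundaries and stand apart at anchors of any loop, with 56.7% and 78.5% in the highest quartile group.

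New loops had an anchor with gained Rad21 somewhat more often than held loops. An anchor with any gained peak was found in 46.7% of new loops (44.9% to 48.5%) and 42.3% of held loops (41.1% to 43.5%). An anchor with gained and no kept peaks was found in 33.4% of new and 25.2% of held loops. Kept peaks in both anchors were found in 23.7% of new and 33.6% of held loops, so many new loops joined sites that already had Rad21 in early G1. New loops with kept peaks in both anchors were long, with a median of 320 kb (300 to 340) against 170 kb for held loops of that kind. New loops with gained and no kept peaks in both anchors had a median of 200 kb (170 to 250), against 140 kb (130 to 160) for held ones. Over all loops the medians were 210 kb for new and 150 kb for held.

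The share of loops that were new depended on size and on the kind of anchor. It was 23.6% for loops with kept peaks in both anchors, 35.9% with kept in one and gained only in the other, and 42.4% with gained only in both. From 100 to under 200 kb these shares were 12.9% (10.8% to 15.2%), 25.5% (22.0% to 29.2%) and 33.0% (24.6% to 42.4%), against 23.9% for all loops of that size. At 400 kb and over they were 58.0%, 68.6% and 88.9% (16 of 18), against 61.6%. Loops with no CTCF and no Rad21 in both anchors were new in 32.9% of cases from 100 to under 200 kb (28.0% to 38.0%). At that size a high share of new loops was thus not particular to gained anchors. From 200 to under 400 kb the share of such loops was 37.1% (29.8% to 44.9%). With gained only in both anchors it was 52.8% (41.9% to 63.5%). At 400 kb and over, 45.0% of loops with no CTCF and no Rad21 were new. Over all sizes these loops were new in 34.1% of cases (30.8% to 37.5%), against 42.4% with gained only in both (36.7% to 48.3%). The intervals of these kinds overlapped at each size. In late G1, 78.8% of new loops with a gained-only anchor (76.1% to 81.3%) were found again, against 76.4% of new loops with kept peaks in both anchors (73.1% to 79.5%) and 74.5% of all new loops.

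**Figure D5:**
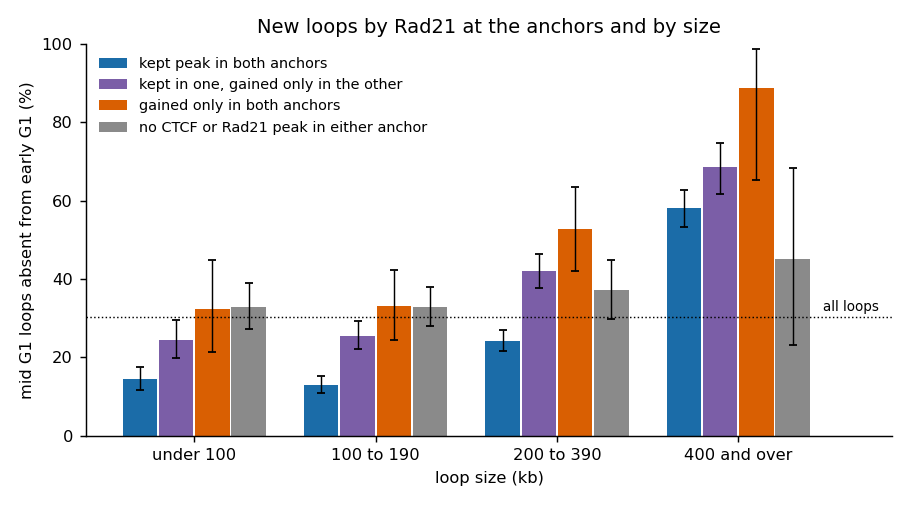
Share of mid G1 loops without an early G1 match, in percent, by loop size in kb and by the Rad21 peaks in the anchors. Whiskers are exact 95% binomial intervals, and the dotted line is the 30.4% of all loops. Among the kinds drawn, the share is lowest with kept peaks in both anchors below 400 kb, and at 400 kb and over with no CTCF and no Rad21, at 45.0% (9 of 20).

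Held loops were compared by the observed/expected contact ratio as well. With the best early G1 match taken, the median log2 of the mid over the early G1 ratio was 0.13 with kept peaks in both anchors (0.11 to 0.15), 0.10 with kept and gained-only anchors (0.08 to 0.14) and -0.03 with gained-only anchors (-0.09 to 0.02). With only loops that had a single match both ways, the values were 0.18 (0.15 to 0.20), 0.20 (0.16 to 0.22) and 0.08 (-0.01 to 0.17). Over all loops the value moved from 0.00 to 0.13. The intervals of the first 2 kinds overlapped under both matches. With CTCF and no Rad21 in both anchors the median was -0.13 with the best match and 0.08 with the single match. With no CTCF and no Rad21 in both anchors it was -0.27 and -0.02.

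Single loops showed both kinds of anchor. New loops of at least 100 kb with a gained peak in one anchor and a kept peak in the other were ranked by observed/expected ratio. The highest, a loop over 920 kb on chromosome 17, had a ratio of 26.1, from 20.2 observed over a low expected value of 0.774. Its left anchor, chr17:40030001-40050000, held 1 gained peak, with a Rad21 fold enrichment of 10.7 in mid G1 over a CTCF peak at percentile 34.6. Its right anchor, chr17:40960001-40980000, held 2 kept peaks of 21.0 and 18.4 and 1 gained peak of 6.77. The second, on chromosome X over 320 kb with a ratio of 17.8, and the third, on chromosome 5 over 1060 kb with a ratio of 15.6, had a kept and a gained peak in each anchor. Of new loops with gained and no kept peaks in both anchors, the highest ratio was 11.4, over 1060 kb between chr3:123210001-123230000 and chr3:124270001-124290000. The Rad21 fold enrichments there were 5.17 and 6.07, and CTCF at the right anchor was called in mid G1 (13.9) and not in early G1. The next 2 lay on chromosome 11 over 550 kb (ratio 10.5) and on chromosome 16 over 710 kb (10.5). All 6 loops were found again in late G1.

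Stripes, lines of contact that run from 1 anchor along a region, were nearly the same in both stages, and 93.2% of the 1754 mid G1 stripe anchors were held from early G1. A stripe anchor held 6.49% of gained peaks (5.94% to 7.08%), 20.3% of kept peaks (19.4% to 21.1%) and 4.32% of CTCF peaks without Rad21. Of the 119 new stripes 59.7% had no Rad21 peak in the anchor, against 13.5% of held ones.

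Gained peaks were spread over most domains. Of the 3731 mid G1 domains that lie in no larger one, 56.4% held gained and kept peaks, 15.0% gained peaks alone, 9.51% kept peaks alone and 19.1% no Rad21 peak. The domain with the most, chr9:43870001-46130000, held 29 gained and 14 kept peaks. The next 2, on chromosomes 2 and 4, held 25 gained with 23 kept peaks and 22 gained with 28 kept peaks.

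Chromosome X stood apart from the autosomes. Of its 377 mid G1 Rad21 peaks 239 were gained, or 63.4% (58.3% to 68.3%), while the 19 autosomes ranged from 40.3% to 51.9%. Of early G1 CTCF peaks on X, 16.1% had a Rad21 peak in early G1 (13.7% to 18.7%), 39.7% in mid G1 (36.4% to 43.0%) and 47.9% in late G1. On the autosomes the values were 25.5% (25.1% to 26.0%), 43.2% (42.7% to 43.8%) and 50.8%. In the highest quartile group of CTCF rank, X had only 50 CTCF peaks. There the shares were 42%, 62% and 68% on X, against 55.0%, 74.4% and 83.5% on the autosomes. In early G1 the median fold enrichment on X was 15.3 against 19.3 for CTCF and 6.04 against 7.02 for Rad21. The part of these lower values in the higher gained share was not tested. Gained peaks on X were not lower in mid G1 Rad21 fold enrichment, with a median of 6.44 (6.17 to 6.98) against 6.17 (6.06 to 6.17). The rule for gained peaks limits that value in part, so it is given as a description. Gained peaks on X ranked lower in early G1 CTCF, with a median percentile of 43.4 (39.6 to 47.8) against 59.1 (58.3 to 60.1). Median mid G1 Rad21 fold enrichment was also lower on X for kept peaks, at 10.03 against 12.20. Over all mid G1 Rad21 peaks it was 7.52 against 8.52. New loops were 30.9% of mid G1 loops on X and 30.4% on the autosomes.

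The 267 lost peaks were weak, with a median early G1 fold enrichment of 4.76 against 7.13 for the early G1 peaks found again. Late G1 held 61.8% of them (55.7% to 67.7%), and an early G1 CTCF peak lay under 74.9%. The strongest, chr15:61820633-61821437, was 805 bp wide without CTCF, with a Rad21 fold enrichment of 8.51 in early G1 and 23.1 in ana/telophase and no call in late G1. The second, chr17:25910482-25910724, had 8.51 in early G1 and 11.3 in late G1 over a CTCF peak of 53.7, so its absence was limited to the mid G1 list among the G1 stages.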

How the data were processed

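Rad21 and CTCF ChIP-seq and Hi-C of sorted G1E-ER4 cells were used, grouped by sample titles; Rad21 and CTCF had 2 samples per group (CTCF in pro-metaphase 3). The submitters' processing notes name MACS2 2.1.0, Bowtie 0.12.7, bedtools 2.27.1, SAMtools 1.7, Bowtie2, HiC-Pro and build mm9, with no role or order. No source used here names the callers of domains, loops and stripes, or how contacts were normalized. Replicates were merged and downsampled into 1 list per stage, as the deposited peak names say. Each peak has a deposited fold enrichment (a ratio), −log10 p, −log10 q and score from the authors. The smallest −log10 p was 4.13 in both Rad21 lists. Loop lists give the authors' observed and expected contact signal and a p-value, per the file headers. The authors' stripe strength was not used. Depth per sample is unknown.

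Overlaps, distances, shares and medians came from SciPy 1.17.1, pandas 2.3.3 and NumPy 2.4.6 under Python 3.11.15, and plots from Matplotlib 3.10.9. Interval functions were tested on simulated data against bedtools 2.31.1. CTCF rank is the percentile by fold enrichment in the early G1 list, taking the highest-ranked CTCF peak that overlaps a Rad21 peak. Positions are 1-based. Loop size is the distance between the bins of the strongest pixel. An anchor with a kept peak may also hold gained ones; "gained-only" anchors hold no kept peak. Named regions are the strongest, farthest or fullest under stated conditions: 5 gained peaks with CTCF, 5 without, 5 kept and 3 lost peaks, 3 loops of each kind, 3 domains, and 3 gained peaks each on the highest CTCF and farthest from kept peaks; the text gives the leading ones. Members, lists and rules were chosen with earlier results of these data known. Alternatives changed the overlap, thresholds, list length, CTCF rank or list, boundary and loop distances, anchor width and loop p-value; leaving out chromosome X was added after the data had been seen. Genes and sequences were not used, because no genome or annotation of mm9 was at hand.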

Additional observations from a re-analysis of the deposited data

How the results depend on the processing

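No paired analysis was possible because each stage has 1 pooled list without replicate numbers, and for the same reason no replicate could be left out. Of 113 recomputed values, 55 stayed within the counting interval (for the number of gained peaks, within 1.5 times), 57 moved beyond it and 1 turned its sign. Gained peaks ranked below kept peaks in CTCF, and were less often at new loops, under each setting run for those results. The order at boundaries turned under 2 settings, the mid G1 list limited to the early G1 length and the comparison within quartile groups of Rad21 fold enrichment. With the limited list, 1834 peaks were gained (21.1%), of which 99.0% were in late G1, 91.9% on early G1 CTCF and 26.2% at new loops (kept 31.8%). There, CTCF percentiles were 61.5 and 78.8 for gained and kept, the distance was 76.7 kb, boundary shares were 39.6% and 37.5%, and 17.9% of new loops had a gained peak. With 50% overlap, the gained share was 47.8%, with 85.1% in late G1, 75.5% on CTCF and a CTCF percentile of 55.4. With summits within 100 bp, 85.3% were in late G1 and 84.1% on CTCF. With a −log10 q of at least 5, the gained share was 47.5%, with 89.2% in late G1 and 87.3% on CTCF. With a fold enrichment of at least 5 it was 49.8%, with 92.6% in late G1, 90.0% on CTCF, percentiles of 60.1 and 79.8, a distance of 73.0 kb, 34.8% at boundaries and 22.7% at new loops. With gained peaks absent from ana/telophase as well, the share was 40.2%, with 84.7% in late G1, 83.0% on CTCF, a percentile of 55.3 and 41.4% of new loops. CTCF rank by −log10 p gave 78.4 for kept peaks, and the asynchronous CTCF list gave 76.4, with 86.1% of gained peaks on CTCF. Gained and kept boundary shares were 21.8% and 23.1% within 10 kb, 47.5% and 51.3% within 40 kb, and 18.4% and 18.6% with outermost domains. At new loops, gained and kept shares were 23.1% and 33.2% with loops matched within 10 kb, 18.6% and 25.5% within 40 kb, and 26.5% and 35.3% with widened anchors; new loops with a gained peak were 44.7%, 49.2% and 56.9%. Gained minus kept, in percentage points, was -2.58 at boundaries, -8.68 at new loops and -25.7 at any loop. Averaged within quartile groups of CTCF rank these were -0.26, -6.60 and -19.6, and within quartile groups of Rad21 fold enrichment 3.37, -1.99 and -19.0. Leaving out chromosome X, an alternative chosen after the data had been seen, was run for 12 of the results, not for these differences, and moved none of the 12 beyond its interval. The cause of these shifts was not tested. Depth is unknown, so a late call cannot be told apart from a site that lay below an earlier list's threshold.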
